A study of Mus musculus with 34 samples.

Results

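Cytosolic ribosomal protein genes encode the proteins that, with ribosomal RNA, make up the small and the large subunit of the ribosome that translates nuclear messages. They were taken by name: protein-coding genes whose symbols begin Rps or Rpl and go on with a digit, with Rpsa and the stalk genes Rplp0, Rplp1 and Rplp2, without the Rps6k kinases and pseudogenes, at a mean of 1 CPM (counts scaled to library size) or more. Of 55385 genes listed, 86 had such names and 83 met the limit: 31 of the small subunit, 43 of the large subunit, 3 of the stalk, 4 paralogs (Rps27rt, Rps27l, Rpl36al and Rpl22l1) and 2 other proteins with such names (Rpl7l1 and Rps19bp1). The members nearest the limit were Rps27rt at 7.71 CPM and Rps27l at 9.96 CPM. Outside it lay Rpl3l at 0.26 CPM, Rpl39l at 0.074 CPM and Rpl10l at 0 CPM. All 83 passed the filter on low counts that left 17632 genes to test, and none of the 83 lay in the segment duplicated in Dp16.

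The series measured poly-A RNA from the cortex of mice 6 months old, 1 library a mouse, in 8 groups that cross genotype with treatment. Wild-type mice were C57BL/6J. 5xFAD mice carry human amyloid precursor and presenilin transgenes with familial Alzheimer's disease mutations under the neuronal Thy1 promoter, Dp16 mice a duplicated segment of chromosome 16 whose genes have counterparts on the human chromosome present in an extra copy in Down syndrome, and 5xFAD-Dp16 mice both. Tofacitinib, an inhibitor of the Janus kinases JAK1 and JAK3, was given by mouth each day for a month at 15 mg per kg, and sham mice received the 0.5% methylcellulose vehicle. The wild-type groups held 5 sham and 5 tofacitinib libraries, 5xFAD 4 and 5, Dp16 3 and 5, and 5xFAD-Dp16 3 and 4. The 16 females and 18 males were spread unequally, with 1 female among the 4 5xFAD sham mice and 2 among the 3 Dp16 sham mice. By the design text, 5xFAD tofacitinib had 6 mice, 5 of them analysed here, and 5xFAD-Dp16 sham had 4, 3 of them analysed here.

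Total counts ran from 16029841 to 21388650 a library. The 6 markers of cortical excitatory neurons, among them Slc17a7, were detected in every group, with summed levels from 1253 to 2227 CPM in 33 libraries. The exception was 5xFAD tofacitinib 2, at 622 CPM, which also had 13302 CPM of the 5 oligodendrocyte markers and 1502 CPM of the 5 choroid plexus markers. The next highest choroid plexus sums were in Dp16 sham 1 (981 CPM), 5xFAD-Dp16 tofacitinib 3 (514 CPM) and wild-type tofacitinib 2 (434 CPM). Striatal markers summed to between 236 CPM, in 5xFAD-Dp16 tofacitinib 3, and 1493 CPM, in wild-type sham 1, so other libraries differed in marker content too. Medians over members are also given with that library and wild-type sham 2, the highest of its group in the members' level, left out together, where this moved them by over 1.5 times. In whole tissue, fewer cells of a type and less RNA per cell cannot be told apart.

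Ribosomal proteins are needed together for each new ribosome, and their messages share a way of control. Many begin with a run of pyrimidines at the cap, the 5' terminal oligopyrimidine (TOP) motif, through which the kinase complex mTORC1 and the protein Larp1 set their translation and their stability. Their genes are short, and their messages are among the most abundant in most cells, neurons and glia included.

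The starts of the genes were examined first. Promoter entries of RefSeq (build GRCm38.p6, 250 bases before to 50 after each start) matched 63 of the 83 genes, with 74 starts. In the window from 30 bases before to 20 after the start, 33 of 74 starts (44.6%) held a run of 8 or more C or T, against 20.2% of 32851 starts of all genes. CTTTC, searched on the sense strand of the same window, stood in 27.0% of these starts and in 6.86% of all. CCGGAAG, a core of ETS factor sites that was searched on both strands of the 300 bases, stood in 35.1% and 8.86%. TATAAA, searched on the sense strand in the 50 bases before the start, stood in 1.35% and 2.63%. CTTTC can lie within a run of C and T, and the reverse complement of CCGGAAG can overlap the end of one. A match is a description of letters and not a site. The windows printed here are those of 4 members chosen for their size of variation: Rpl5 and Rps12, which varied much between libraries, and Rpl4 and Rpl28, which varied little. The first stands at chr5:107900498-107900547 (plus strand), the second at chr10:23787190-23787239 (minus), the third at chr9:64173357-64173406 (plus) and the fourth at chr7:4792935-4792984 (plus). Capitals mark the longest run of C and T.
Rpl5: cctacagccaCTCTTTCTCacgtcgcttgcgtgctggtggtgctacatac
Rps12: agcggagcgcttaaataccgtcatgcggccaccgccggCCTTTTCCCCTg
Rpl4: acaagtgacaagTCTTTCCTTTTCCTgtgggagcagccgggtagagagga
Rpl28: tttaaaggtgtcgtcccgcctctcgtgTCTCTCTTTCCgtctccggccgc
The runs were 9 bases in Rpl5, 11 in Rps12, 14 in Rpl4 and 11 in Rpl28, so all 4 held a run of 8 or more. Only 33 of the 74 starts did, so these 4 genes do not stand for the members. The run ended before the annotated start in Rpl5 and Rpl4, spanned it in Rpl28 and began after it in Rps12. Whether these messages begin with their run was not tested. Rps27rt, a gene on chromosome 9 nearly identical to Rps27 on chromosome 3, is shown with it because the pair bears on how reads were assigned. Their windows stand at chr3:90213629-90213678 and chr9:114982720-114982769, both on the minus strand.
Rps27: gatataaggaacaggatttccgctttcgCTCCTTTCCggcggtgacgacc
Rps27rt: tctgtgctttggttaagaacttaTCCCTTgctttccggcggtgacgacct
The windows share ctttccggcggtgacgacc, a run of 19 bases. In the longest coding transcripts of GENCODE M21, 307 of 307 aligned bases were identical between Rps27rt and Rps27. A read within these bases fits both genes, so the values of Rps27rt are uncertain. The other paralogs were farther from their partners, at 85.6% for Rpl36al and Rpl36a, 76.4% for Rps27l and Rps27, and 75.5% for Rpl22l1 and Rpl22.

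Levels per gene length were set side by side in RPKM (reads per kilobase of gene length, scaled to library size), as means over the 34 libraries. Gene length here and below is the length by which the deposited RPKM divide the counts. It is not the span of the gene on the chromosome. Rplp1, a stalk protein that recruits elongation factors, was highest at 2119 RPKM. Rps15 at 1082, Rps21 at 935, Rps29 at 910 and Rpl41, a very short basic protein, at 818 RPKM followed. The lowest were Rpl7l1, a nucleolar relative of Rpl7, at 16.01 RPKM, Rps27l at 17.2, Rps27rt at 20.6, Rps19bp1, a regulator of the deacetylase Sirt1, at 24.9, and Rpl36al at 26.8 RPKM. Among genes of the standard subunits Rps15a was lowest, at 32.6 RPKM, and it had the greatest gene length in this sense, at 5395 bases. The median length of the 83 was 975 bases, and the shortest was Rps27rt at 374 bases. Rows of pseudogenes with names in -ps, 311 in all, summed to 178 CPM against 28268 CPM for the members, so few reads had been counted to them. Reads that a pseudogene shares with its parent remain uncertain for every member.

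In each library, the level of the members was taken as the median over the 83 genes of log2 CPM less the mean of wild-type sham. Wild-type sham libraries stood at −0.039, 0.36, −0.51, 0.28 and −0.075 (replicates 1 to 5), and 5xFAD sham libraries at −0.50, −0.64, −0.68 and −0.59. All 4 5xFAD sham libraries were low and close together, while wild-type sham spread widely, and its replicate 3 lay inside the 5xFAD range. The 3 5xFAD-Dp16 sham libraries, at −0.35, −0.78 and −0.37, were also low, and the 3 Dp16 sham libraries, at −0.42, −0.072 and 0.057, lay within the wild-type range. Under tofacitinib, wild-type stood at 0.52, −0.59, −0.034, −0.39 and −0.63. The replicates of 5xFAD tofacitinib numbered 1, 2, 4, 5 and 6 stood at −0.87, 0.12, −0.17, −0.079 and −0.12. Dp16 tofacitinib stood at −0.35, 0.035, −0.27, 0.34 and −0.20, and 5xFAD-Dp16 tofacitinib at 0.030, −0.33, 0.26 and −0.46. The 4 tofacitinib groups overlapped one another, and wild-type tofacitinib 1 was the highest and 5xFAD tofacitinib 1 the lowest of the 34 libraries.

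The order of the group means was wild-type sham (0.0031 ± 0.34, SD, n = 5), Dp16 tofacitinib (−0.088 ± 0.28, n = 5), 5xFAD-Dp16 tofacitinib (−0.13 ± 0.33, n = 4), Dp16 sham (−0.15 ± 0.25, n = 3), wild-type tofacitinib (−0.225 ± 0.48, n = 5), 5xFAD tofacitinib (−0.225 ± 0.38, n = 5), 5xFAD-Dp16 sham (−0.50 ± 0.25, n = 3) and 5xFAD sham (−0.61 ± 0.076, n = 4). No neighbours in this order differed by more than the larger of their SDs. The widest gap, between 5xFAD tofacitinib and 5xFAD-Dp16 sham, was above the SD of the latter. The gap between 5xFAD-Dp16 sham and 5xFAD sham was above the small SD of 5xFAD sham. As a share of all counts, the members took 3.24% ± 0.72 in wild-type sham and 2.098% ± 0.14 in 5xFAD sham, and from 1.76% to 4.53% over single libraries.

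**Figure D1:**
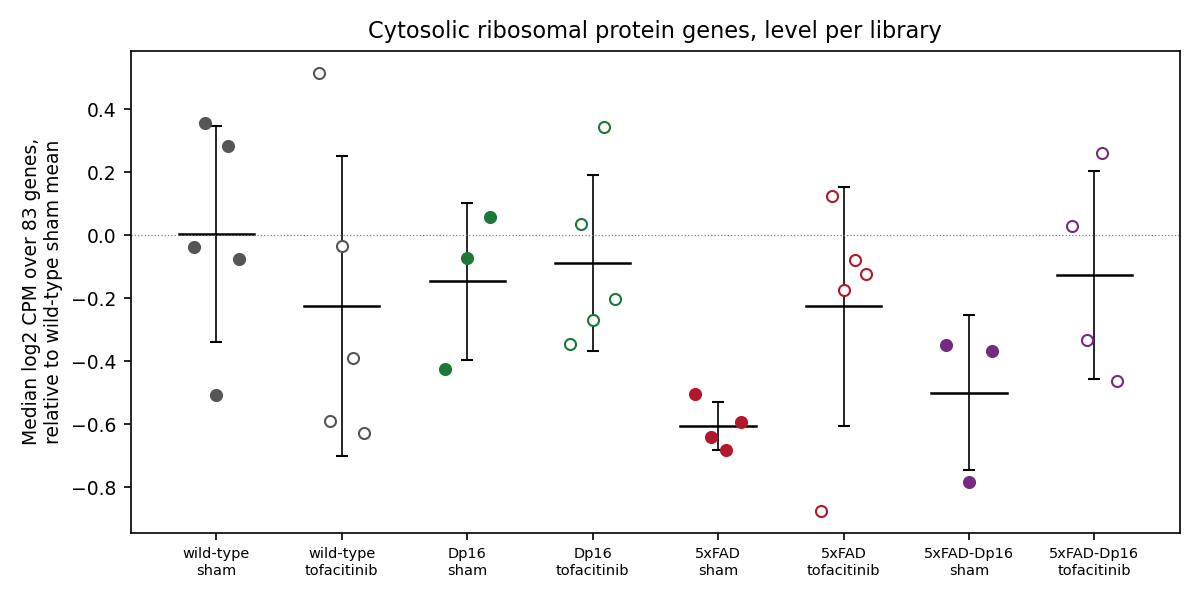
Level of the 83 genes in each library, as the median log2 CPM with the mean of wild-type sham set to 0 (vertical axis, log2 units), by group (horizontal axis). Filled points are sham and open points tofacitinib libraries, and bars give the mean ± SD. The 4 5xFAD sham libraries lie between −0.68 and −0.50, and wild-type sham spans −0.51 to 0.36.

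The comparison of 5xFAD with wild-type under sham asks what the transgenes change in the cortex without the drug. All 83 members were below 0 on the log2 scale, with a median of −0.64 and a range from −1.28 to −0.18, against a median of 0.012 over all 17632 genes. None was called by the edgeR quasi-likelihood test at a Benjamini-Hochberg adjusted p under 0.05, where 0.017% of all genes were called. The smallest adjusted p among members was 0.061. At an unadjusted p under 0.05 stood 80 of the 83, and 24.8% of all genes. DESeq2 called 56 members and 9.0% of genes, and limma-voom with sample weights 77 members and 14.2% of genes, all of these members lower. With only these 2 groups, edgeR called 75 members and 9.15% of genes. Without wild-type sham 3, the low library named above, it called 69 members and 11.3% of genes. With no filter on low counts it called 74 members and 5.57% of genes, and without the sex term 6 members and 2.65%. With a filter at a mean of 1 CPM it called 0 members and 0.021% of genes. With DESeq2 size factors, or TMM scaling without the members, it called 0 members and 0.017% of genes. With wild-type sham 2 and 5xFAD tofacitinib 2 left out it called 0 members and 0.0057% of genes. Members were called in 6 of 12 other settings and in 1 of 9 fits with 1 library left out. The number of members called thus changed with the tool, the filter, the terms, the groups in the fit and 1 library.

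In 33 of the 83 members the 4 5xFAD sham libraries all lay below the 5 wild-type sham libraries, and so did 5.91% of all genes tested. Small subunit genes had a median of −0.69 with 31 of 31 below 0, large subunit genes −0.60 with 43 of 43, the stalk −0.57 with 3 of 3, and the paralogs −0.92 with 4 of 4.

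Rpl5 binds 5S ribosomal RNA together with Rpl11, and both proteins can hold the p53 ligase Mdm2 when ribosome assembly is disturbed. Rpl5 stood at 582, 969, 420, 819 and 542 CPM in wild-type sham and at 405, 338, 301 and 332 CPM in 5xFAD sham. No 5xFAD sham library reached the lowest wild-type one. The log2 difference of Rpl5 was −0.95 ± 0.26 (SE), or 0.52-fold, with an adjusted p of 0.061 (edgeR), and that of Rpl11 was −0.79 ± 0.23 (adjusted p 0.061).

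Rps6, the subunit protein phosphorylated by the S6 kinases downstream of mTORC1, stood at 473, 680, 371, 616 and 464 CPM in wild-type sham. In 5xFAD sham it stood at 350, 303, 303 and 313 CPM, below every wild-type library. Its log2 difference was −0.71 ± 0.22 (adjusted p 0.068). In the other sham groups Rps6 was at 364, 500 and 522 CPM in Dp16, where 1 of 3 libraries was below the wild-type range, and at 375, 306 and 366 CPM in 5xFAD-Dp16, where 2 of 3 were.

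Rplp0, the base of the stalk, stood at 425, 510, 312, 494 and 430 CPM in wild-type sham and at 304, 283, 286 and 298 CPM in 5xFAD sham. The groups did not overlap, though wild-type sham 3 came close to the highest 5xFAD library. Its log2 difference was −0.57 ± 0.18, beside −0.59 ± 0.20 for Rplp1 and −0.52 ± 0.18 for Rplp2.

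Rps29, one of the smallest proteins of the small subunit, behaved otherwise: it stood at 357, 398, 287, 398 and 380 CPM in wild-type sham and at 294, 296, 300 and 319 CPM in 5xFAD sham. Its groups overlapped through wild-type sham 3, and its log2 difference was −0.28 ± 0.15 (adjusted p 0.24). Rpl4, a large subunit protein that lines the exit tunnel, stood at 704, 737, 668, 786 and 788 CPM and at 669, 666, 652 and 629 CPM. The difference of Rpl4 was the smallest of the 83, at −0.18 ± 0.078.

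**Figure D2:**
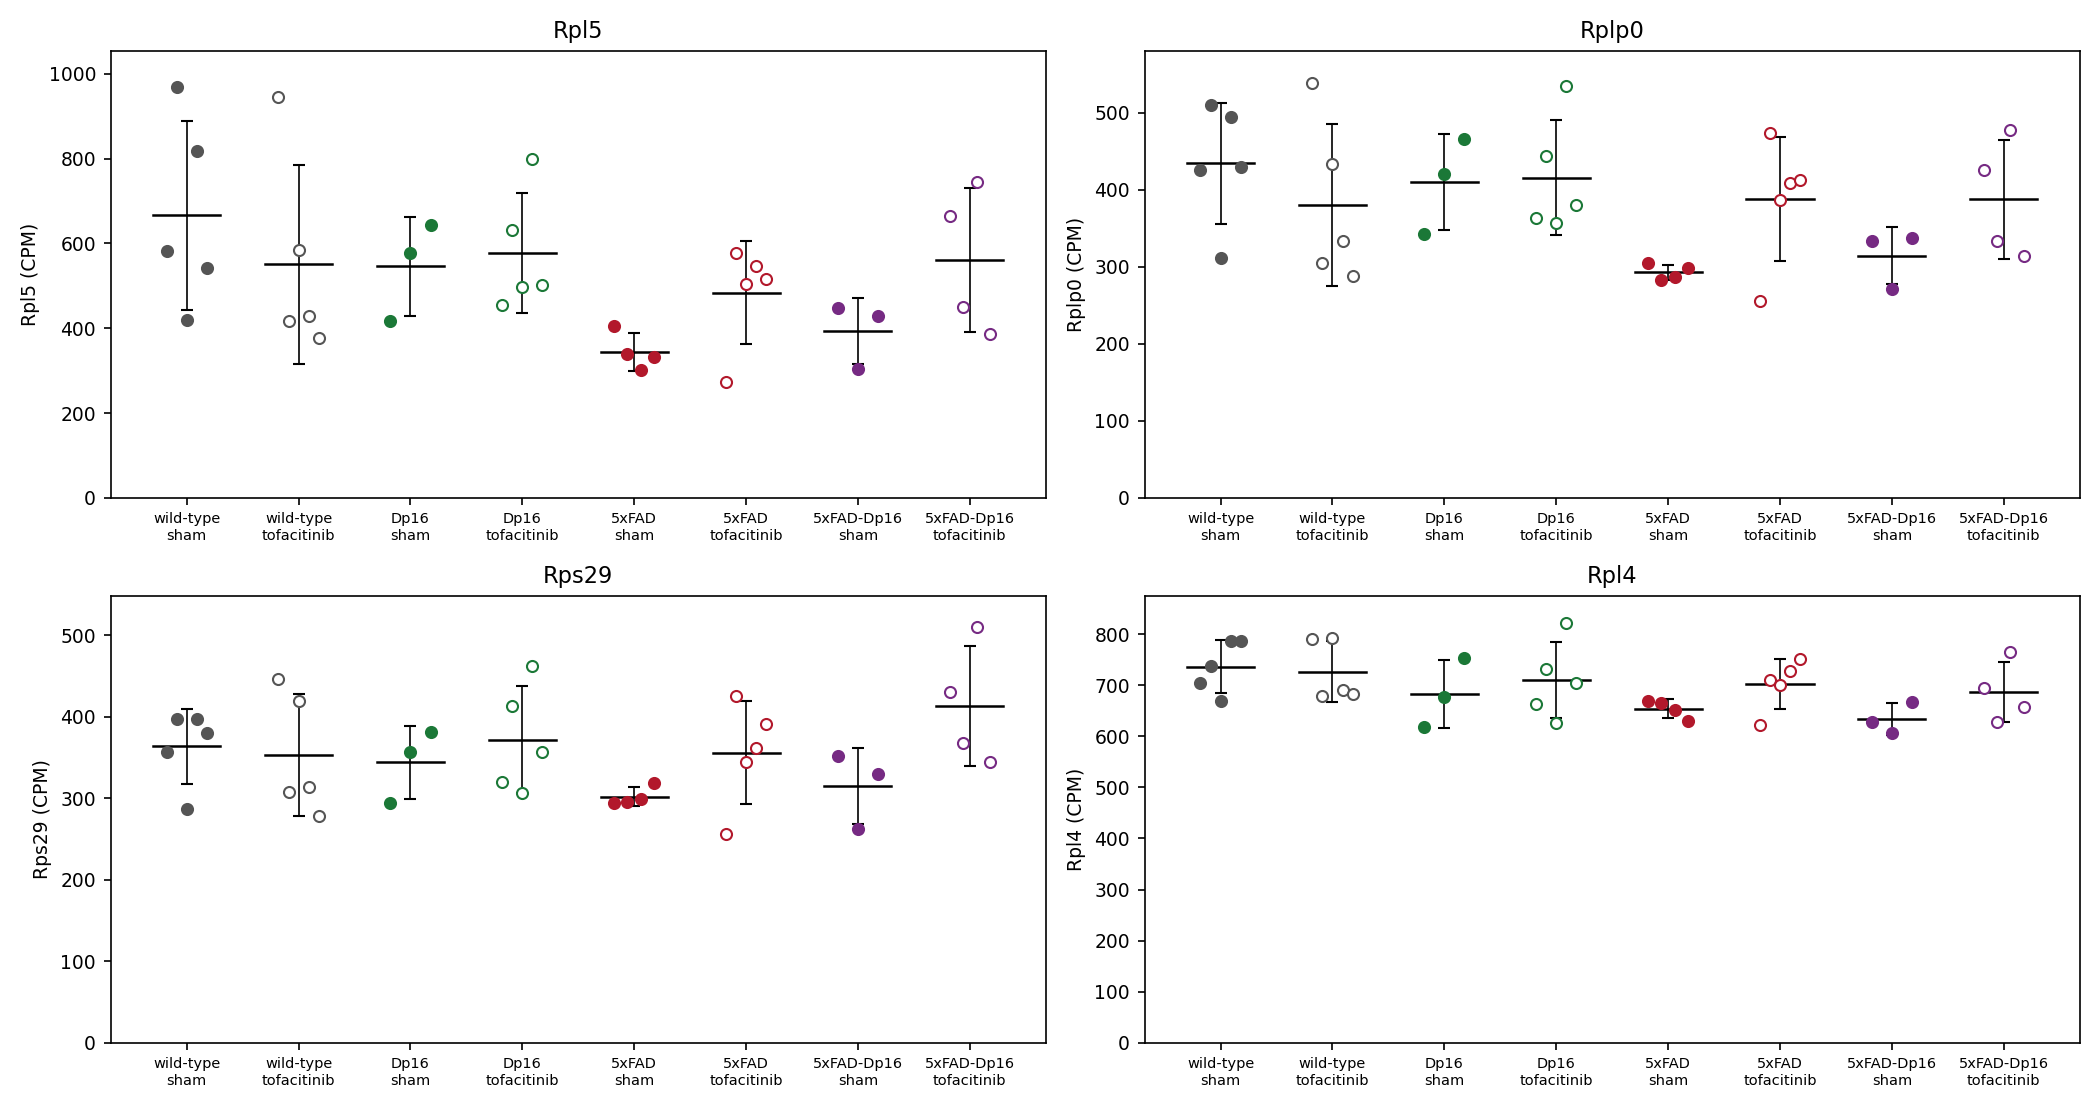
CPM of Rpl5, Rplp0, Rps29 and Rpl4 (vertical axes, from 0) in each library of the 8 groups (horizontal axes). Filled points are sham and open points tofacitinib libraries, with mean ± SD. Rpl5 spans 3.54-fold over the 34 libraries and Rpl4 1.36-fold.

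Among the other small subunit genes, the difference was −0.52 ± 0.19 for Rpsa, also known as a laminin receptor, −0.43 ± 0.17 for Rps2 and −0.84 ± 0.25 for Rps3, both at the channel where mRNA enters. It was −0.71 ± 0.25 for Rps14 and −0.67 ± 0.25 for Rps19, genes whose loss of a copy causes anaemia in people. Rps25, used in internal initiation, was at −0.90 ± 0.28, Rps27a, made as a fusion with ubiquitin, at −0.80 ± 0.27, and Rps12 at −1.03 ± 0.31. Rps28 at −0.34 ± 0.15 and the X-linked Rps4x at −0.29 ± 0.11 were nearer 0. None of these was called.

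Among large subunit genes, Rpl3, next to the peptidyl transferase centre, was at −0.50 ± 0.19. Rpl10, which joins the subunit last, was at −0.39 ± 0.18, and Rpl10a, of the L1 stalk, at −0.69 ± 0.20. Rpl13a was at −0.82 ± 0.26, Rpl22 at −0.53 ± 0.18, Rpl38 at −0.60 ± 0.21, Rpl39 at −0.58 ± 0.24 and Rpl41 at −0.90 ± 0.28. Rpl7 at −0.68 ± 0.19 and Rpl15 at −0.57 ± 0.16 had low p for their size (0.0013 and 0.0014, edgeR, unadjusted). Of the paralogs and the other proteins, Rpl22l1 was at −0.91 ± 0.31, Rpl36al at −0.75 ± 0.22, Rps27l at −0.94 ± 0.36, Rpl7l1 at −0.31 ± 0.12 and Rps19bp1 at −0.32 ± 0.17.

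Rps27rt had the lowest p of all members. It stood at 11.9, 17.9, 6.15, 13.4 and 8.22 CPM in wild-type sham and at 5.93, 3.63, 4.41 and 4.67 CPM in 5xFAD sham. Its log2 difference was −1.28 ± 0.31, with an adjusted p of 0.061. Rps27, which shares its sequence, stood at 335, 447, 203, 442 and 301 CPM in wild-type sham and at 224, 190, 188 and 210 CPM in 5xFAD sham. How the counting treated reads that fit both genes of this pair was not tested.

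In 5xFAD-Dp16 against wild-type under sham, again all 83 were below 0, with a median of −0.52 against 0.0060 over all genes. None was called by edgeR, where 0.363% of genes were called. At an unadjusted p under 0.05 were 60 members and 14.9% of all genes. DESeq2 called 0 members and 0.92% of genes, and limma-voom 1 member, Rpl23a, with 2.0% of genes. With no filter on low counts edgeR called 65 members and 2.73% of genes. The lowest p values were those of Rps27rt (−1.07 ± 0.33, adjusted p 0.18) and Rpl23a (−0.52 ± 0.17, adjusted p 0.20). Rpl5 was at −0.77 ± 0.29 with 449, 304 and 428 CPM, of which 2 lay above the lowest wild-type sham library. In 8 members the groups did not overlap, as in 3.96% of genes. Among these 8 was Rpl4 (628, 606 and 668 CPM), whose highest value was barely below wild-type sham 3 (667.7 against 668.3 CPM).

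In Dp16 against wild-type under sham, 82 of 83 were below 0, with a median of −0.16. No member was called by edgeR (0.21% of genes were), DESeq2 (0.357%) or limma-voom (0.34%), and none had an unadjusted p under 0.05, against 7.27% of genes. Rpl29 (−0.22 ± 0.11, adjusted p 0.71) and Rps27rt (−0.60 ± 0.32, adjusted p 0.73) had the lowest p. With wild-type sham 2 and 5xFAD tofacitinib 2 left out the median was −0.043. With 1 library left out in turn it ran from −0.28 without Dp16 sham 3 to −0.041 without Dp16 sham 1. These 3 genotype comparisons share the wild-type sham libraries, so their directions are not independent.

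Under tofacitinib the medians were −0.031 in 5xFAD (53 of 83 below 0), 0.086 in Dp16 (9 below 0) and 0.060 in 5xFAD-Dp16 (21 below 0), each against wild-type tofacitinib. Their size and sign rested on single libraries. Without wild-type tofacitinib 1 they were 0.21, 0.36 and 0.31, and in limma-voom, which gives libraries unequal weights, 0.22, 0.23 and 0.24. The 5xFAD median was 0.10 without 5xFAD tofacitinib 1 and −0.14 with wild-type sham 2 and 5xFAD tofacitinib 2 left out. The Dp16 median was −0.045 without Dp16 tofacitinib 4, and the 5xFAD-Dp16 median −0.11 without 5xFAD-Dp16 tofacitinib 3. No member was called by edgeR, DESeq2 or limma-voom in any of the 3, where edgeR called 0.017%, 0.25% and 0.306% of genes. DESeq2 called 0.034%, 0.425% and 0.715% of genes, and limma-voom 0.267%, 0.834% and 1.11%. No member had an unadjusted p under 0.05 (edgeR), against 6.39%, 8.50% and 6.41% of genes. Rpl5 stood at 946, 418, 583, 430 and 376 CPM in wild-type and at 274, 578, 504, 548 and 515 CPM in 5xFAD tofacitinib. Both groups held a library far from the rest, and they overlapped widely. The differences were −0.18 ± 0.24 for Rpl5, 0.028 ± 0.16 for Rplp0 and −0.010 ± 0.20 for Rps6. The members of lowest p were Rps27rt (−0.39 ± 0.28) and Rpl18 (0.19 ± 0.16) in 5xFAD, Rps19bp1 (0.20 ± 0.16) and Rpl18 (0.19 ± 0.16) in Dp16, and Rps29 (0.23 ± 0.15) and Rps15a (0.26 ± 0.19) in 5xFAD-Dp16. These comparisons share the wild-type tofacitinib libraries.

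Tofacitinib was compared with sham within each genotype. In 5xFAD all 83 members were above 0, with a median of 0.43, and in 5xFAD-Dp16 all 83 were, with a median of 0.39. In wild-type all 83 were below 0, with a median of −0.18, and in Dp16 77 were above 0, with a median of 0.068. edgeR called no gene of any kind in these 4 comparisons (0.0% each). At an unadjusted p under 0.05 stood 27 members in 5xFAD (14.8% of all genes), 4 in 5xFAD-Dp16 (1.92%) and 0 in wild-type and Dp16 (7.30% and 2.05%). DESeq2 called 0 members in all 4, with at most 0.011% of genes called. limma-voom called 14 members in 5xFAD, with 5.61% of genes, and 0 in the others (0.0% of genes each). With no filter on low counts edgeR called 55 members in 5xFAD (2.0% of genes) and 24 in 5xFAD-Dp16 (0.29%). The wild-type median was −0.46 without wild-type tofacitinib 1, −0.39 in limma-voom, and −0.073 with wild-type sham 2 and 5xFAD tofacitinib 2 left out. The Dp16 median turned to −0.073 without Dp16 tofacitinib 4, −0.064 without Dp16 sham 1 and −0.086 in limma-voom, where 79 of 83 were below 0. The 5xFAD-Dp16 median was 0.24 without 5xFAD-Dp16 tofacitinib 3. The sham libraries of each genotype also enter the genotype comparisons under sham.

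In 5xFAD the lowest p was that of Rpl7, which stood at 245, 229, 226 and 241 CPM under sham and at 206, 429, 331, 358 and 335 CPM under tofacitinib. In it 4 of 5 tofacitinib libraries were above every sham library and 1, replicate 1, was below all. Its log2 difference was 0.49 ± 0.19 (adjusted p 0.32), followed by Rpl15 at 0.39 ± 0.16. In 5xFAD-Dp16 the lowest p was that of Rps29, at 352, 262 and 330 CPM under sham and 431, 368, 510 and 345 CPM under tofacitinib, with a difference of 0.38 ± 0.17 (adjusted p 0.999), followed by Rpl37 at 0.51 ± 0.23. In wild-type Rpl7 (−0.27 ± 0.18) and Rpl36al (−0.30 ± 0.20) had the lowest p, and in Dp16 Rps19bp1 (0.25 ± 0.19) and Rpl29 (0.11 ± 0.11). Rps29 had the lowest p also in the mean of the drug over the 4 genotypes, at 0.17 ± 0.078 (adjusted p 0.93), followed by Rpl37 at 0.22 ± 0.11. In that mean all 83 members were above 0 with a median of 0.17, and 2 had an unadjusted p under 0.05 (edgeR, 3.36% of genes). edgeR (0.0% of genes), DESeq2 (0.0057%) and limma-voom (0.0%) called no member. That median was 0.10 without wild-type tofacitinib 1 and 0.071 in limma-voom, and with no filter edgeR called 12 members and 0.159% of genes.

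The interaction of 5xFAD and tofacitinib, the drug's difference in 5xFAD less that in wild-type, was above 0 in all 83 members, with a median of 0.63. edgeR called none of them and no other gene (0.0%), and the smallest adjusted p was 0.19. An unadjusted p under 0.05 was found for 46 members and 20.3% of genes. DESeq2 called 0 members and 0.0057% of genes, and limma-voom 78 members and 20.2% of genes. Without wild-type tofacitinib 1, the highest library, edgeR called 67 members and 13.0% of genes. Without 5xFAD tofacitinib 1, the lowest, it called 6 of the 83 and 8.53% of genes, so that the members' share was near that of all genes. With no filter on low counts it called 61 members and 3.64% of genes. With wild-type sham 2 and 5xFAD tofacitinib 2 left out the median was 0.39. Rpl7 (0.77 ± 0.26), Rpl18 (0.66 ± 0.24) and Rpl15 (0.59 ± 0.22) had the lowest p, and Rpl4 was at 0.13 ± 0.11.

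With both treatments and Dp16 states averaged, 5xFAD carriers differed from non-carriers by a median of −0.26, with all 83 below 0. edgeR called 0 members and 0.42% of genes, and an unadjusted p under 0.05 stood with 67 members and 20.3% of genes. DESeq2 called 4 members, Rpl21, Rps2, Rpl23a and Rpl24, with 3.33% of genes, and gave 2 members no adjusted p. limma-voom called Rpl24 alone, with 2.61% of genes, so neither share of members stood far from that of all genes. With no filter on low counts edgeR called 67 members and 4.24% of genes. Rps27rt was at −0.56 ± 0.16 (adjusted p 0.080), Rpl24 at −0.35 ± 0.11, Rpl5 at −0.41 ± 0.13 and Rps29 at −0.063 ± 0.078, the nearest to 0. Rps27rt passed the threshold without wild-type sham 3 (adjusted p 0.040, 1.68% of genes called) and without 5xFAD-Dp16 tofacitinib 3 (adjusted p 0.048, 1.41% of genes). Dp16 carriers differed from non-carriers by a median of 0.034, with 21 members below 0. edgeR called none, with none at an unadjusted p under 0.05 (13.7% of genes), although this comparison called 2.14% of genes. DESeq2 and limma-voom called no member either, with 3.01% and 6.60% of genes called. The lowest p were those of Rpl29 (−0.074 ± 0.055) and Rpl39 (0.15 ± 0.12). With wild-type sham 2 and 5xFAD tofacitinib 2 left out that median was 0.11, and with 1 library left out in turn it ran from −0.012 without 5xFAD-Dp16 tofacitinib 3 to 0.12 without wild-type tofacitinib 1.

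**Figure D3:**
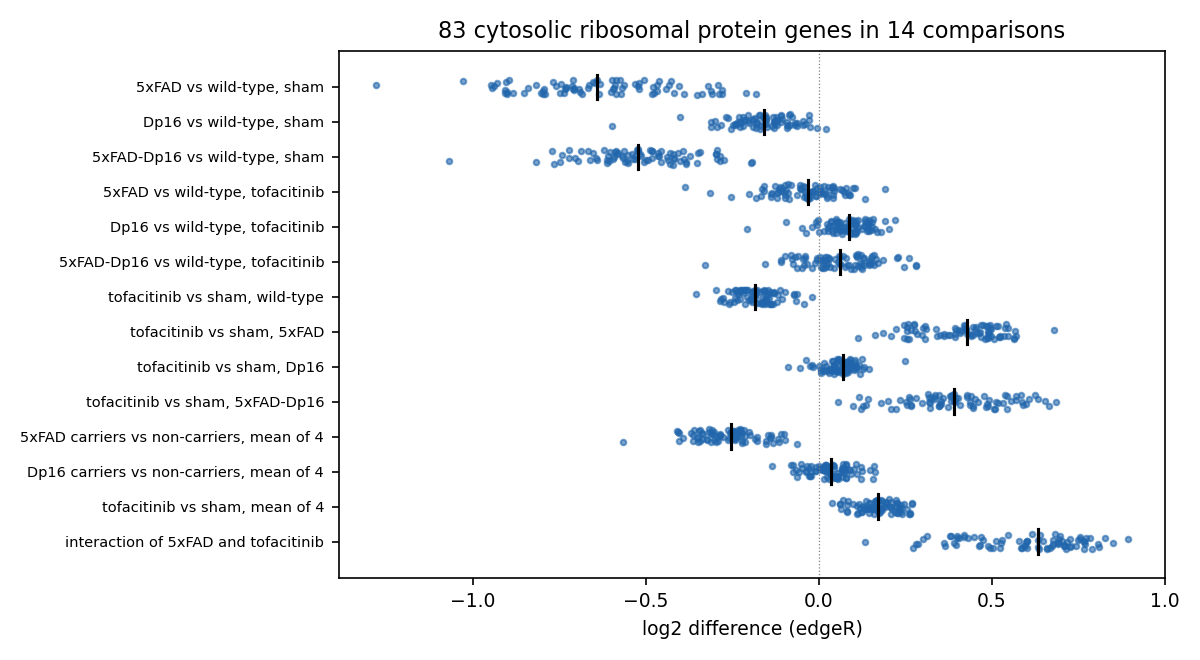
The log2 difference of each of the 83 genes (points, horizontal axis) in each of the 14 comparisons (rows), with the median as a black line. All points lie below 0 for 5xFAD against wild-type under sham and above 0 for the interaction, and they surround 0 for 5xFAD against wild-type under tofacitinib.

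The members' levels ran together from library to library. After the group means were removed, the correlation between 2 members over the 34 libraries had a median of 0.97 over 3403 pairs, with a 5th percentile of 0.79. The points share library, depth and scaling, so this is a description. Of the 83, 78 had a correlation of 0.9 or more with the median of the others, and none was under 0.5. The loosest were Rpl7l1 and Rps19bp1, the pair outside the subunits, the stalk and the paralogs.

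They did not vary by equal amounts. When the median of the other members was 1 log2 unit higher, Rpl4 was 0.27 log2 units higher, Rpl29 0.39, Rpl7l1 0.44, Rpl28 0.44 and the X-linked Rps4x 0.48. At the other end Rps27l was 1.54 higher, Rps12 1.46 and Rpl22l1 1.41. Rps12 thus ran from 197 to 947 CPM and Rpl4 from 606 to 823 CPM over the same libraries. This slope had a Spearman correlation over the 83 genes of −0.21 with gene length and −0.093 with the GC content of the longest coding transcript. Near their annotated starts, Rpl4 and Rpl28 at the low end held pyrimidine runs of 14 and 11 bases. Rpl7l1 and Rps4x, also at that end, had longest runs of 5 and 4 bases. At the high end the longest runs were 11 bases in Rps12, 10 in Rpl22l1, and 9 and 5 at the starts of Rps27l. The runs did not always lie at the start itself, and Rpl29 had no promoter entry. Whether a run goes with this slope was not tested.

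Gene length ran beside the members' level in every library. For each library, the slope of log2 CPM on log2 gene length was fitted over all tested genes other than the members. That slope ranged from −0.16 to 0.12 log2 units per doubling of length, and its correlation with the members' level over the 34 libraries was −0.955 (Pearson) and −0.958 (Spearman). Libraries in which short genes were generally low were those in which ribosomal protein genes were low. The Pearson value was −0.948 without the 2 libraries farthest from the median slope, Dp16 tofacitinib 4 and wild-type tofacitinib 1. It was −0.975 after group means were removed and −0.953 among the 15 sham libraries. The points share the library and its scaling, so this is a description. The mean slope was 0.088 ± 0.020 in 5xFAD sham and −0.029 ± 0.066 in wild-type sham, where replicate 3 stood at 0.078.

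**Figure D4:**
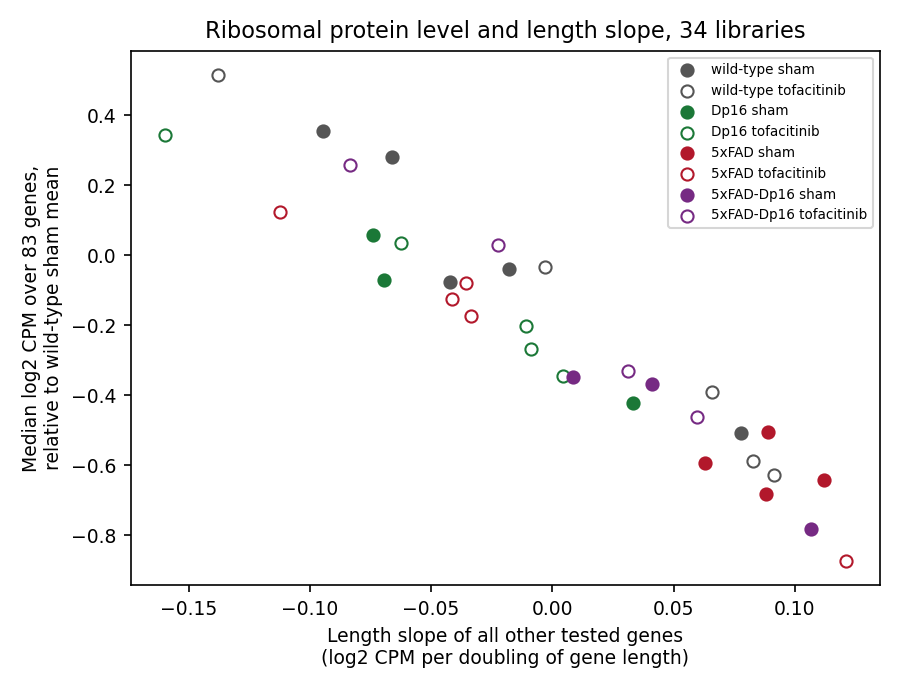
Level of the 83 genes (vertical axis, median log2 CPM with the mean of wild-type sham set to 0) against the slope of all other tested genes on length (horizontal axis, log2 CPM per doubling of gene length), 1 point a library. The 34 libraries of all groups lie along 1 falling line, with a Pearson correlation of −0.955.

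Other measures were set beside the members' level, and some of them moved with it. The share of counts from mitochondrial DNA had a Pearson correlation of 0.72 with it, the total count −0.17 and the number of genes detected −0.16. Summed markers of cortical excitatory neurons had −0.70 (Pearson) and −0.92 (Spearman), the first with 5xFAD tofacitinib 2 far from the other libraries. Those of hippocampus had −0.55 and −0.65, and of thalamus −0.33 and −0.64. The Pearson values were −0.63 for endothelium, −0.42 for microglia, −0.25 for astrocytes, 0.70 for blood, 0.61 for interneurons, 0.52 for oligodendrocytes, 0.43 for choroid plexus and 0.39 for striatum. The excitatory markers (6 of 6 at 1 CPM or more) summed to 1317 to 2050 CPM in wild-type sham and 1815 to 2171 CPM in 5xFAD sham, and those of microglia (5 of 5) to 309 to 393 CPM and 394 to 455 CPM. The part of cell types and mitochondrial share in the members' differences was not tested.

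In 5xFAD against wild-type under sham, genes other than members had a median log2 difference of −0.42 under 1 kb (1566 genes), −0.18 from 1 to 2 kb (3404 genes), 0.0080 from 2 to 4 kb (6458 genes) and 0.15 at 4 kb or more (6121 genes). The members of the same classes stood at −0.66 (43 genes), −0.66 (30), −0.52 (9) and −0.48 (1 gene, Rps15a). In each class the members' median was below that of the other genes, and the distance was least under 1 kb. Over genes, the Spearman correlation of length with the difference was 0.39 for the 17549 other genes and 0.16 for the members. For tofacitinib against sham in 5xFAD the other genes' medians were 0.33, 0.20, 0.031 and −0.12 from the shortest to the longest class, and the members' 0.46, 0.42, 0.38 and 0.34. In 5xFAD against wild-type under tofacitinib every class median of other genes lay between −0.066 and 0.067.

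**Figure D5:**
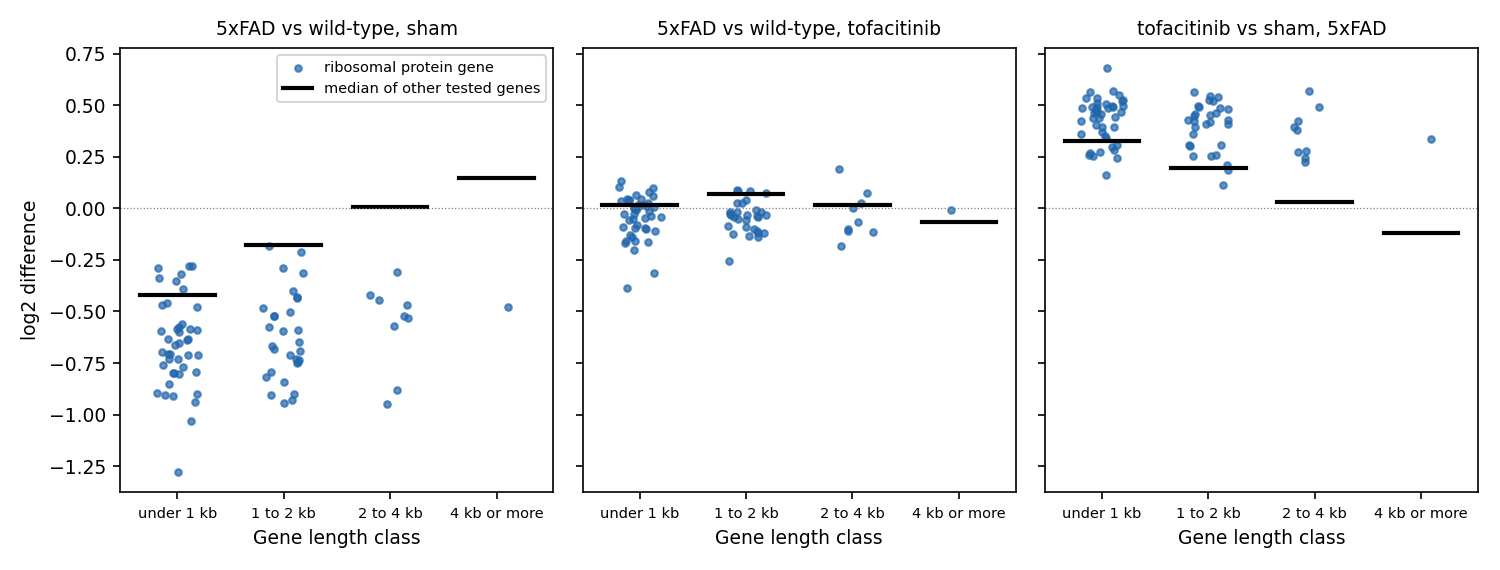
The log2 difference of each of the 83 genes (blue points, vertical axis) by gene length class (horizontal axis) in 3 comparisons, with the median of the other tested genes of the class as a black line. Under sham the line runs from −0.42 to 0.15 with length, and the members' median lies below it in each class, at −0.66 for both classes under 2 kb.

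With the trend on length removed in each library, the median of the members in 5xFAD against wild-type under sham was −0.36, with 78 of 83 below 0. In that fit 21 members and 3.1% of genes were called. The 21 included Rpl5 (−0.86, adjusted p 0.038), Rps24 (−0.84, adjusted p 0.048), Rps6 (−0.39, adjusted p 0.049) and Rplp0 (−0.36, adjusted p 0.045). Near 0 were Rpl4 (−0.016) and Rps4x (−0.0074), and Rps29 was above it (0.18, adjusted p 0.14). In 5xFAD-Dp16 against wild-type under sham the median was −0.36 and Rpl23a alone was called, with 0.544% of genes, and so it was in 5xFAD-Dp16 against wild-type under tofacitinib, with 0.55% of genes. The median was 0.17 for the drug in 5xFAD, 0.21 for the drug in 5xFAD-Dp16, 0.073 for the drug over 4 genotypes and 0.30 for the interaction. For 5xFAD carriers it was −0.15, with Rps27rt, Rpl24 and 1.24% of genes called. In Dp16 carriers 6 members were called lower in that fit, among them Rps26, Rpl28 and Rpl23a, by 0.12 to 0.19 in size, with 3.39% of genes called, and the median was −0.036.

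Related genes were counted from lists of known function, with the same test over all genes. Of 21 translation factors and other genes with TOP messages, among them Fau and Rack1, ribosomal proteins with other symbols, 16 were below 0 in 5xFAD against wild-type under sham, with a median of −0.34, where 48.5% of all genes were below 0. None was called by edgeR and 15 had an unadjusted p under 0.05, as did 24.8% of all genes. In 5xFAD-Dp16 against wild-type under tofacitinib, Hnrnpa1, a splicing factor, was called lower (−0.27 ± 0.061, adjusted p 0.042). No other of the 14 comparisons called a gene of this list.

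Of 77 tested genes for proteins of the mitochondrial ribosome, a separate machine inside mitochondria, 74 were below 0 in 5xFAD against wild-type under sham. Of all genes 48.5% were. The median of the 77 was −0.40, at a median length of 1398 bases, and other genes of such length also had a median below 0, as given above. None of the 77 was called by edgeR and 57 had an unadjusted p under 0.05, as did 24.8% of all genes. In 5xFAD carriers Mrpl19 was called lower (−0.21 ± 0.048, adjusted p 0.038), and 75 of 77 were below 0, against 49.3% of all genes. In Dp16 carriers Mrpl39 (0.48 ± 0.050, adjusted p 6.73e-08) and Mrps6 (0.52 ± 0.095, adjusted p 0.0012), both in the duplicated segment, and Mrps17 (0.24 ± 0.054, adjusted p 0.013), outside it, were called higher. Mrpl39 was also called higher against wild-type under tofacitinib in Dp16 (0.62 ± 0.089) and in 5xFAD-Dp16 (0.49 ± 0.093).

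Of 42 ribosome biogenesis genes, 19 were below 0 in 5xFAD against wild-type under sham, with a median of 0.024 at a median length of 2864 bases, and 0 were called by edgeR. An unadjusted p under 0.05 was found for 12 of 42, near the 24.8% of all genes. In Dp16 carriers 33 of 42 were below 0, against 48.7% of all genes, and 2 were called, where 2.14% of all genes were. Both were lower: Fbl, the methyltransferase of box C/D particles that modifies ribosomal RNA (−0.31 ± 0.051, adjusted p 2.90e-04), and Ncl, nucleolin (−0.17 ± 0.045, adjusted p 0.033). Ncl was also called lower in 5xFAD-Dp16 against wild-type under tofacitinib (−0.37 ± 0.084, adjusted p 0.043). Of 27 regulators of mTORC1, 11 were below 0 in 5xFAD against wild-type under sham, with a median of 0.039 at a median length of 3966 bases, and edgeR called none in any of the 14 comparisons. In that first comparison 14 of 27 had an unadjusted p under 0.05, against 24.8% of all genes. The lowest was that of Mtor, the kinase itself (0.49 ± 0.14, adjusted p 0.061). Its gene length was 8785 bases, and other genes of such length also had a median above 0, as given above. The part of gene length in this difference was not tested.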

How the data were processed

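The counts were whole numbers of reads per gene and mouse, made by the authors with HISAT2 2.1.0, SAMtools 1.5 and HTSeq 0.6.1 on GRCm38, per the submitters' processing notes, which give no roles. Library preparation was strand-specific per the labels, and the strand setting of the counting is not given in the sources used here. RPKM values, deposited by the authors, were recomputed from the counts (largest relative difference 7.90e-14) and gave gene lengths.

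edgeR 4.0.16 in R 4.3.3 was fitted once to all 34 libraries (TMM, filterByExpr on the 8 groups, terms for group and sex), with two-sided quasi-likelihood tests of 14 contrasts and Benjamini-Hochberg adjustment over 17632 genes. An SE is the size of a log2 difference divided by the square root of F. Alternatives were DESeq2 1.42.0, limma-voom 3.58.1, other filters and scalings, a loess length trend removed per library, a replicate block, and libraries left out. The edgeR fit was also run on simulated counts, drawn for each gene independently. Of 50 genes changed 1.5-fold in 5xFAD carriers, it called 14 in 5xFAD against wild-type under sham. It called 29 of them in 5xFAD carriers against non-carriers. Of 17432 unchanged genes it called 4 and 5. Many changed genes were thus not called.

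Members and gene lists were chosen with earlier results of these data known. Named genes were a fixed panel, the lowest p per comparison, and the extremes of length and RPKM; Rps12, Rps24, Rpl29, Rpl28 and Rpl18 and the other genes named for the size of their variation or under an alternative were chosen after their values were seen. The labels give 1 mouse a library. Some genes that this rule names are not reported here.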

Additional observations from a re-analysis of the deposited data

Results flagged for a closer look

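In groups of 4 or 5 libraries, 6 values of the panel genes stood apart by Dixon's criterion at its 95% level, of 186 groups tested, and chance alone flags about 1 in 20 groups. Of these, 4 came from 5xFAD tofacitinib 1, the library with the lowest level of members: Rps2 at 296 CPM, Rps19 at 104 CPM, Rps25 at 197 CPM and Rpl5 at 274 CPM, each below the 4 other libraries of its group. Rps28 was low in wild-type sham 3, at 154 CPM. Rpl10a was high in Dp16 tofacitinib 4, at 241 CPM, the library with the lowest slope on gene length.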

How the results depend on the processing

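The sign of the members' median was kept in every alternative run for 9 of the 14 comparisons, among them 5xFAD against wild-type under sham (−0.76 to −0.36), 5xFAD-Dp16 against wild-type under sham (−0.62 to −0.36), 5xFAD carriers (−0.29 to −0.15) and the interaction (0.30 to 0.91). It changed in 3 to 5 alternatives for genotypes under tofacitinib, for the drug in Dp16 and for Dp16 carriers. The number of members called was 0 in each comparison as reported, and the share of all genes called by the same fit stands in parentheses here. DESeq2 gave 56 for 5xFAD against wild-type under sham (9.0%) and 4 for 5xFAD carriers (3.33%). limma-voom gave 77 for 5xFAD (14.2%) and 1 for 5xFAD-Dp16 (2.0%) against wild-type under sham, 1 for 5xFAD carriers (2.61%), 14 for the drug in 5xFAD (5.61%) and 78 for the interaction (20.2%). With no filter on low counts the numbers were 74 for 5xFAD (5.57%) and 65 for 5xFAD-Dp16 (2.73%) against wild-type under sham and 67 for 5xFAD carriers (4.24%). They were 55 for the drug in 5xFAD (2.0%), 24 for it in 5xFAD-Dp16 (0.29%), 12 for it over 4 genotypes (0.159%) and 61 for the interaction (3.64%). With the length trend removed they were 21 for 5xFAD (3.1%) and 1 for 5xFAD-Dp16 (0.544%) against wild-type under sham, 1 for 5xFAD-Dp16 against wild-type under tofacitinib (Rpl23a, 0.55%), 2 for 5xFAD carriers (1.24%) and 6 for Dp16 carriers (3.39%), and the median of the interaction was 0.30. In 5xFAD against wild-type under sham, no sex term gave 6 (2.65%) and only the groups compared gave 75 (9.15%). In that comparison a filter at a mean of 1 CPM (0.021%), DESeq2 size factors (0.017%) and TMM without the members (0.017%) each gave 0. Members were called there in 6 of 12 other settings and in 1 of 9 fits with 1 library left out. With a library left out in turn, the count ran from 0 to 69 for 5xFAD against wild-type under sham, 0 to 1 for 5xFAD carriers and 0 to 67 for the interaction. The cause of these changes was not tested.

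Same-numbered libraries of different groups had a mean correlation of deviations of 0.0077 (98 pairs, 9 over 0.1). Differently numbered ones had −0.0016 (405 pairs, 44 over 0.1). These values gave no sign of a pairing by replicate number but cannot exclude one. With the replicate number as a block, 0 members were called in each of the 14 comparisons, with a median of −0.72 in 5xFAD against wild-type under sham. A fit of only the groups compared was not run for the 3 comparisons averaged over 4 contrasts, which hold all groups. The members with the fewest reads were Rps27rt and Rps27l, at means of 7.71 and 9.96 CPM.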
